A study of Mus musculus with 24 samples.

Results

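The counts of the 129S1 and the CAST allele were compared within each of 10 libraries from parental lines of mouse embryonic stem cells that are F1 hybrids, out of 24 libraries in the series. The members were all autosomal genes whose counts, added over both alleles, averaged 10 or more in these libraries, 13333 of 46594 autosomal genes. Of the genes near that limit, 397 had a mean of 10 to under 12 counts, and 486 genes with a mean of 8 to under 10 were left out. The cells were F121/9, a female line that carries 1 genome of the inbred strain 129/Sv (129S1 in the header of the count table) and 1 of CAST/EiJ, a wild-derived strain. The labels give the cross as CAST/EiJ x S129/Sv.

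The groups were 5 with 2 replicates each, the parental lines named d3, d6, i7, i10 and i12, all with the genotype control. Each is the line from which recombined clones of the same name were made, in a study of contacts between the genome and the nuclear lamina. All lines were grown on gelatin with LIF and 2 inhibitors, PD0325901 at 1 µM against MEK and CHIR99021 at 3 µM against GSK-3β. All 5 lines descend from 1 F1 hybrid, so no reciprocal cross is present, and strain and parent of origin cannot be told apart. The design text calls the replicates biological duplicates, and p-values measure the spread between these libraries, not between independent crosses.

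In an F1 hybrid the alleles share 1 nucleus and the same transcription factors. A lasting difference between them is therefore generally read as local, from sequence or chromatin near the gene. Imprinted genes, at which the parent of origin sets the active allele, are a known exception on autosomes. In short-read data an allele also has to be told apart by a variant, and genes with processed copies elsewhere in the genome are hard to place.

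Total counts per library ran from 3286819 to 12263924, and the 129S1 allele held 49.17% to 49.55% of autosomal counts. The 9 pluripotent stem cell markers found in the table, Pou5f1 and Nanog among them, summed to 6277 to 8621 CPM (counts scaled to the library total). Of 8 primitive endoderm markers, 6 had a median under 1 CPM, and the list summed to 5.68 to 13.3. Of 10 markers of epiblast and early differentiation, 6 had a median of at least 1 CPM and 4 a lower one. That list summed to 118.4 to 304.6, with Dnmt3b at 28.5 to 233 and Nes at 24.3 to 70.0. The fibroblast list summed to 827 to 3795, of which Fn1 alone held 804 to 3790, while Col3a1, Dcn and Acta2 were at 0 in all 10 libraries. Of the same list Thy1 (3.35 to 17.1 CPM), Pdgfrb (0.608 to 9.14) and Col1a1 (0.193 to 2.99) were detected in all 10, and Col1a2, Postn and Lum reached at most 1.46. Fn1 was near balance between alleles (log2 ratio -0.0037). Of the 4 fibroblast genes tested, 3 passed the allele test described below toward 129S1 and 0 toward CAST (75.0%, against 69.0% of all genes). The median log2 ratio of the 4 was 0.733.

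Unequal expression of the alleles was widespread. The allele counts differed in 9198 genes, 69.0% of those tested, at an adjusted p under 0.05 in edgeR's quasi-likelihood test with library as a block. The 129S1 allele was higher in 4788 (35.9%) and the CAST allele in 4410 (33.1%). Unadjusted p-values lay under 0.05 for 9495. In 6113 genes, 45.8%, the same allele was higher in all 10 libraries. Over all genes tested, called or not, the median size of the log2 ratio was 0.47, where 1 is 2-fold, and the median signed ratio was 0.03. Of the genes called, 1558 differed by under 1.25-fold, 1890 by 1.25-fold to under 1.5-fold and 1705 by 1.5-fold to under 2-fold. A further 1769 differed 2-fold to under 4-fold, 984 4-fold to under 16-fold and 1292 by 16-fold or more.

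A gene was called strongly unequal when it passed the test, differed at least 2-fold and had the same allele higher in all 10 libraries. This held for 3568 genes, 26.8%, with 1867 toward 129S1 (14%) and 1701 toward CAST (12.8%). When each allele had to reach a mean of 10 counts, which removes genes with a nearly silent allele, 1860 were left. Genes near one-sided, with at most 2% of their counts on the lower allele, numbered 632 of the 9965 that averaged 50 counts or more (6.34%), 299 toward 129S1 and 333 toward CAST.

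How often a gene was unequal differed between classes of genes. Of 1389 tested pseudogenes, 77.7% were strongly unequal, against 19.9% of 11032 protein-coding genes. Of the 632 near one-sided genes, 417 were pseudogenes and 168 protein-coding. Among protein-coding genes the share moved with sequence held in common with other genes, measured as the percentage of a gene's 31-base words that also occur in transcripts of another gene (GENCODE M21). At most 1% shared words was found in 6616 genes, of which 14.8% were strongly unequal and 0.452% of those with at least 50 counts near one-sided. With over 1% to 10% shared, 578 of 3019 genes were strongly unequal, with over 10% to 50% shared 46.7% of 1061, and with over 50% shared 42.6% of 336. The part of misplaced reads in these ratios was not tested. Protein-coding genes with at most 1% shared words are called low-sharing below, and copies outside annotated transcripts were not searched.

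**Figure D1:**
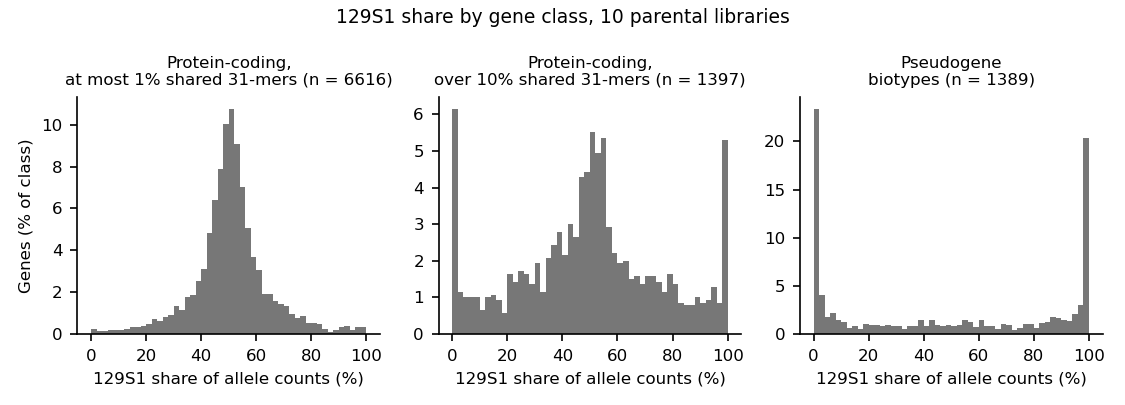
Share of allele counts on 129S1 (x axis, percent) over genes of 3 classes (y axis, percent of the class in bins of 2 points), from the counts of 10 parental libraries added. Low-sharing protein-coding genes form 1 peak near 50%, protein-coding genes with over 10% shared words have added peaks at both ends, and pseudogenes lie mostly at the ends.

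Outside a segment of chromosome 5 described below, 6483 low-sharing genes were tested. Of these 48.9% differed by under 1.25-fold, 1294 genes by 1.25-fold to under 1.5-fold and 13.8% by 1.5-fold to under 2-fold. A further 11.7% differed 2-fold to under 4-fold, 4.16% 4-fold to under 16-fold, and 91 genes (1.4%) by 16-fold or more. In all, 912 were strongly unequal, 489 toward 129S1 and 423 toward CAST. Depth moved with these shares. Strongly unequal genes made up 18.2% of the low-sharing genes with means of 10 to under 30 counts and 12.2% of those with 1000 or more, while the median standard error of the log2 ratio fell from 0.267 to 0.0497.

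The low-sharing genes with the largest ratios were ranked among 434 strongly unequal ones outside the chromosome 5 segment. All 434 averaged 100 counts or more, with 3 or more on the lower allele and no Gm, Rik or pseudogene symbol. The rule was added after values were seen. The genes with the largest ratios encode proteins of many kinds. Cnbp (ENSMUSG00000030057.15, chromosome 6, 87842615 to 87851106 in GRCm38), a zinc finger protein that binds nucleic acids, had a 129S1 share of 99.8% in the lowest library, 99.9% at the median and 99.96% in the highest. Its mean was 6481 counts on 129S1 and 9.1 on CAST per library (log2 ratio 9.46, SE 0.127, adjusted p 1.54e-19). Every library was thus nearly one-sided, in the same direction.

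Ppp2r5c (ENSMUSG00000017843.14, chromosome 12, 110447120 to 110583062), a regulatory subunit of the phosphatase PP2A, had shares of 98.6% (lowest), 99.3% (median) and 99.6% (highest). Mpp6 (chromosome 6, 50110241 to 50198939), a scaffold protein of cell membranes, had 98.2%, 99.03% and 99.3%, and its ratio was close in the 5 lines, from 6.36 in i12 to 6.88 in i7. Rras2 (chromosome 7, 114046782 to 114117781), a small GTPase related to Ras, had 98.3%, 99.1% and 99.6%. These 3 genes thus had few CAST counts in any library.

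Atp5mpl, a small subunit of the mitochondrial ATP synthase, and Car2, a carbonic anhydrase, had median shares of 98.7% and 98.5%. Vasp, a regulator of actin filaments, Rnf181, a ubiquitin ligase, and Ube2g1, a ubiquitin-conjugating enzyme, had medians of 97.3%, 97.1% and 97.5%. Gpx1, a glutathione peroxidase, had a median of 97.7% and 87.5% in its lowest library. Vasp and Rnf181 overlap genes on the opposite strand.

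Toward CAST the largest low-sharing ratio was that of Cox8a (ENSMUSG00000035885.5, chromosome 19, 7215153 to 7217616), a subunit of cytochrome c oxidase. Its 129S1 share was 0.177% in the lowest library, 0.295% at the median and 0.600% in the highest, with means of 19.3 counts on 129S1 and 4837 on CAST (log2 ratio -8.02, SE 0.146, adjusted p 5.45e-18). No library came near balance.

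Abcc3 (chromosome 11, 94343295 to 94392997), a transporter that exports organic anions, had a median share of 1.77% and a range of 0 to 6.67%. Mfap5, a protein of extracellular microfibrils, had a median of 1.21%, Emc4, a subunit of the membrane protein insertion complex of the endoplasmic reticulum, 2.86%, and Plxdc2, a membrane receptor, 3.61%. Igfbp3, which binds insulin-like growth factors, had 4.29%, B4galt5, a galactosyltransferase of glycolipid synthesis, 4.51%, and Cisd3, an iron-sulfur protein of mitochondria, 4.60%. Agbl5 and Leng1, at 7.08% and 4.68%, overlap other genes on both strands. The ratios of Mfap5, Plxdc2 and Cisd3 also differed between lines (adjusted p 0.0202, 0.0215 and 0.0497), though CAST was higher in all 10 libraries.

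Promoters were described from the RefSeq table for GRCm38.p6, whose sequences are those of the reference genome and of neither strain here. A promoter was the 250 bases before and 50 after a gene's start. Of 6483 low-sharing genes outside the chromosome 5 segment, 5112 matched by symbol. The word TATAAA, on either strand, stood in 6.18% of these promoters, in 7.08% of the 692 strongly unequal ones and in 14.2% of all 27025 promoters of that length. Fewer than 5 CG pairs stood in 4.71% of the low-sharing promoters, in 8.24% of the strongly unequal and in 3.36% of those under 1.25-fold. Among genes that averaged 100 counts or more, fewer than 5 were found in 7.06% of strongly unequal and 3.67% of all low-sharing promoters. No test was run on these shares.

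The promoters of Apoa2, Bcl2l14 and Mpp6 show that range, with CG pairs in capitals, 5′ to 3′ on the gene's strand. Apoa2, an apolipoprotein of high-density lipoproteins and 1 of the low-CG genes, was higher on CAST, Bcl2l14, a relative of the apoptosis regulator BCL2, was low in CG and higher on 129S1, and Mpp6 was rich in CG and higher on 129S1. The log2 ratio was -7.22 for Apoa2, 7.01 for Bcl2l14 and 6.63 for Mpp6, so few and many CG pairs both stood beside large ratios. Apoa2 and Bcl2l14 are not among the ranked genes above, which needed 100 counts or more and 3 or more on the lower allele. The ratio of Bcl2l14 ran from 5.37 in i12 to 7.99 in i7. The positions are chr1:171224804-171225103, plus strand, for Apoa2, chr6:134396079-134396378, plus strand, for Bcl2l14 and chr6:50109991-50110290, plus strand, for Mpp6.
Apoa2: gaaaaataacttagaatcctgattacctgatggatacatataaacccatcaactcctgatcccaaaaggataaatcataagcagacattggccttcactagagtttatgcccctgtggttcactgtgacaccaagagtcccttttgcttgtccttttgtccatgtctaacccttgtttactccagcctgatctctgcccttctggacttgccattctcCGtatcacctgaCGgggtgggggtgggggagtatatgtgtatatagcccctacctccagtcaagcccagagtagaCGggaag
Bcl2l14: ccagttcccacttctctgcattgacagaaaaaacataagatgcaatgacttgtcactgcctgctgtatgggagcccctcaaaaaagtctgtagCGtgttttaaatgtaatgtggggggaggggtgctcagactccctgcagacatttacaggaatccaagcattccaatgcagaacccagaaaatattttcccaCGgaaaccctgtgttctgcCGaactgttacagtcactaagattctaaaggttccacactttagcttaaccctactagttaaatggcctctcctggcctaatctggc
Mpp6: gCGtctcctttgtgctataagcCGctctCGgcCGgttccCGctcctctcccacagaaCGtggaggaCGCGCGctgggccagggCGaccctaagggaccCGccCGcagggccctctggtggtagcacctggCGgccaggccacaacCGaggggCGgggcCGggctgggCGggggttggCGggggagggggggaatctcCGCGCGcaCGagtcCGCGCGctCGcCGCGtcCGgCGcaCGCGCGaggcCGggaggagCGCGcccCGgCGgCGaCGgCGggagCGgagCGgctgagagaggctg

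The most counted of the strongly unequal genes were housekeeping genes with shared sequence. Eef1a1, the translation elongation factor that brings aminoacyl-tRNA to the ribosome, had 6674 to 25820 counts on 129S1 and 0 on CAST in each of the 10 libraries. Over the libraries together, 129S1 was at least 51260-fold higher, against a floor of 3 counts, and 49.8% of its 31-base words were shared. Tpt1, a translationally controlled protein, was the reverse, with a 129S1 share of 0.0605% to 0.261% and 19.9% shared words.

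Hsp90aa1, a cytosolic chaperone, had a 129S1 share of 1.82% at the median, and Hspa8, another chaperone, of 14.3%. Pkm, a glycolytic enzyme, stood at 22.3%, Hmga1, a chromatin protein, at 6.62% and Rplp0, a ribosomal stalk protein, at 31.96%. Toward 129S1, the median share was 95.7% for Ptma, a small acidic nuclear protein, 84.9% for Eef1b2, another elongation factor, and 99.5% for Rplp1, a partner of Rplp0. Between 13.1% and 75.1% of the words of these 8 genes were shared.

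The largest ratios with at least 3 counts on the lower allele were mostly of this kind. Toward 129S1 the rule for named genes gave Rpl36al, Rps15, Pebp1, Platr15, Rpl18, Ube2d2a and Ranbp1 beside Cnbp, with log2 ratios of 8.02 to 10.3. Toward CAST it gave Tpt1, Gnpda1, Rpl23, Rpl22l1, Hax1, Rpl26 and Ptp4a1 beside Cox8a, from -9.17 to -8.02. Of the 16, only Cnbp and Cox8a had at most 1% shared words. Also among the most counted near one-sided genes were the following: Rps20 with a median share of 0.354%, Rpl13a with 99.5%, and Mir6236, a microRNA model with 0 counts on CAST in all 10 libraries.

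Ribosomal proteins, components of the translation machinery, were often unequal. Of 75 tested, 46 were strongly unequal, 20 toward 129S1 and 26 toward CAST, or 61.3% against 26.8% of all genes. Their median shared sequence was 23.4%, against 0.761% over all genes, and none was low-sharing. Of 72 mitochondrial ribosomal proteins 21 were strongly unequal, or 29.2%, near the background. Of 29 low-sharing ones 5 were (background 14.8% of low-sharing genes), among them Mrpl14 with a mean of 399.3 counts on 129S1 and 1.0 on CAST.

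Pluripotency genes were unequal in both directions. Of 28 tested, 23 passed the test (82.1% against 69.0% of all genes), 12 toward 129S1 and 11 toward CAST. Strongly unequal were 9 of the 28 (32.1% against 26.8% of all genes), and 3 of the 16 low-sharing ones (background 14.8% of low-sharing genes). Pou5f1 (ENSMUSG00000024406.16, chromosome 17, 35506018 to 35510772), which encodes the pluripotency factor OCT4, had a 129S1 share of 0.373% in the lowest library, 0.399% at the median and 0.641% in the highest. The d3 replicates held 37 and 43 counts on 129S1 against 9148 and 10731 on CAST (log2 ratio over all libraries -7.91, SE 0.0718, adjusted p 4.24e-21). Nearly all counts of Pou5f1 were thus assigned to CAST in every line, and 4.79% of its words were shared with other genes.

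Prdm14, a repressor that holds cells in the naive state, had shares of 3.80% (lowest), 10.1% (median) and 23.8% (highest). Replicates of a line lay far apart, at 23.8% and 9.89% in d3 and 20.9% and 8.10% in d6, while i7 was low in both, at 3.80% and 4.61%. Dppa2, a chromatin factor of early embryos, Zfp42, which encodes the marker REX1, and Lin28a, an RNA-binding protein, had median shares of 22.9%, 24.4% and 25.1%. Lin28a had 0 of its words shared, against 33.8% for Dppa2 and 13.4% for Zfp42.

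Toward 129S1 stood Nr5a2, an orphan nuclear receptor, with a median share of 79.2%, and Nanog, a homeobox factor of the naive state, with 71.6%. Nanog was highest in the d3 line, at 75.3% and 84.9%, against 68.7% to 72.8% in the other 8 libraries, and lies in a segment of chromosome 6 in which d3 departed, described below. Tcl1, an activator of AKT signalling, and Tdgf1, a co-receptor of NODAL, had medians of 68.9% and 66.3%, with log2 ratios of 1.02 and 1.01, at the edge of the 2-fold rule. The core factor Sox2 stood at 52.9%, Esrrb at 53.3% and Tfcp2l1 at 54.0%, all past the test by small ratios of 0.17, 0.20 and 0.24. Klf5, Klf2, Gbx2, Zfp57 and Stat3 did not pass, with adjusted p of 0.0549 to 0.924.

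**Figure D2:**
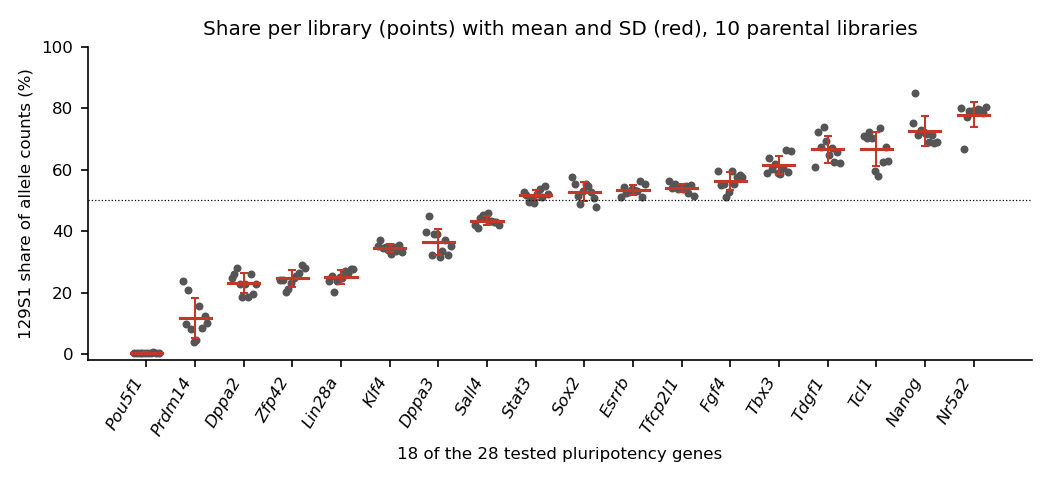
Share of allele counts on 129S1 (y axis, percent) for 18 of the 28 tested pluripotency genes (x axis, ordered by share), with a point for each of 10 parental libraries and the mean and SD in red. Pou5f1 lies near 0.4% in all libraries, Prdm14 spreads from 3.80% to 23.8%, and Nr5a2 and Nanog lie highest.

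Other lists gave values on both sides of the background, which was 26.8% of all genes and 14.8% of low-sharing genes. Of 24 antiviral and interferon response genes 8 were strongly unequal (33.3% against 26.8% of all genes), 6 toward 129S1, and 3 of the 8 low-sharing members were. Among the 6 were Ifitm3 and Ifitm1, membrane proteins that restrict viral entry, with median 129S1 shares of 94.9% and 81.6%, and Oas1b, of the oligoadenylate synthetase family, with 93.7%. Of 15 antigen presentation genes 7 were strongly unequal (46.7% against 26.8%), but 0 of the 4 low-sharing ones. The class I genes H2-D1, H2-Bl and H2-T10 had counts on 129S1 alone and H2-Q4 on CAST alone, with 21.3% to 50.7% of their words shared. These genes belong to a polymorphic family of near copies, so their counts are uncertain.

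Of 13 germline genes that promoter methylation is known to control, 7 were strongly unequal (53.8% against 26.8% of all genes). Among the 9 low-sharing ones 4 were, against 14.8% of all low-sharing genes. Of the 7, 4 lay toward 129S1, such as Tex14 at a median of 74.8%, and 3 toward CAST, such as Dazl at 27.1%. Of 23 sterol synthesis genes 7 were strongly unequal (30.4%, near the background, and 2 of 11 low-sharing ones, against the same 14.8%), 6 toward 129S1. They included Idi1 and Fdps, which make isoprenoid precursors, at 93.6% and 79.4%, while Insig1, a sensor that holds the pathway back, ranged from 15.3% to 26.1%. Of 20 glycolytic genes 8 were strongly unequal, a larger share than the 26.8% of all genes, but 1 of 9 low-sharing ones. Gapdh, Pgam1 and Gpi1 had median shares of 11.0%, 8.03% and 20.5%, and Tpi1 stood at 89.9%, with 10.3% to 37.1% of the words of these 4 shared.

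The nuclear lamina list held 2 strongly unequal genes of 21 (9.52%). Both encode proteins that link the nucleus to the cytoskeleton, Sun1 with a median share of 69.6% and Syne1 with 17.2%. Of 19 genes of DNA methylation 2 were, Uhrf1, which guides maintenance methylation, at 80.4% and Tdg, a glycosylase of demethylation, at 2.56%, with 24.3% and 41.8% of their words shared. Sun1 lies in the distal segment of chromosome 5 described below. Of 304 zinc finger genes named Zfp 78 were strongly unequal, or 25.7%, near the background of 26.8%. Proteasome subunits (10 of 35) and lysosomal genes (5 of 29) had 28.6% and 17.2%. Of 12 subunits of RNA polymerase II 4 were strongly unequal, and of 51 detoxification enzymes 16 (31.4%), 10 of these toward CAST.

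Imprinted genes were read against the usual parental pattern, which the single cross allows only as a description. The labels name CAST/EiJ first in the cross. Mitochondrial counts, which are inherited from the mother, lay on 129S1, with 0.0853% to 0.215% on CAST without mt-Co1 and mt-Nd5. Which strain was the mother was not tested further, so no gene is placed on its maternal or paternal allele here. Of 14 tested paternally expressed genes 9 passed the test (64.3% against 69.0% of all genes) and 3 were strongly unequal (21.4% against 26.8%). Plagl1, a zinc finger gene (chromosome 10, 13060504 to 13131694), had shares of 65.8% (lowest), 77.1% (median) and 81.8% (highest), and Mest, a hydrolase gene, of 71.9%, 80.2% and 86.9%. Snurf, all of whose words are shared, stood at 27.9% at the median, Peg3 at 37.7%, Snrpn at 40.1% and Peg10 at 44.8%. Plagl1 and Mest thus lay toward 129S1 and these 4 toward CAST, and no paternally expressed gene was near one-sided.

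Of 8 maternally expressed genes 4 passed the test, a smaller share than the 69.0% of all genes, and Mirg alone was strongly unequal (12.5% against 26.8%). The maternal RNA Rian stood near balance (median share 49.4%, adjusted p 0.707), while Mirg of the same cluster stood at 31.3%, with a log2 ratio of -1.05. Igf2r was near balance at 52.0% (adjusted p 0.140). H19 ranged from 0 to 100% over a mean of 22.4 counts per library (adjusted p 0.716). Asb4 passed with means of 1.0 count on 129S1 and 15.3 on CAST, but CAST was not higher in all 10 libraries.

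The distal end of chromosome 5 differed as a whole. From Tmem132d, the next tested gene after Glt1d1, to the end of the chromosome (127781630 to 151651242 in GRCm38), 124 of 133 low-sharing genes had more counts on 129S1. Of these 133, 110 passed the test toward 129S1 and 6 toward CAST, and 61 were strongly unequal toward 129S1. Over all 6616 low-sharing genes, these 133 included, 2201 passed toward 129S1, 1904 toward CAST, and 550 were strongly unequal toward 129S1. The median log2 ratio was 1.01, with quartiles of 0.62 and 1.30. It was present in each library, with library medians of 0.90 (lowest), 0.96 (median) and 1.04 (highest). In the other 325 low-sharing genes of chromosome 5 the median was 0.04 and the library medians ran from -0.010 to 0.054, so the ranges did not overlap. The segment was found in the same counts, which therefore give no test of it.

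In 14 libraries of recombined clones, which were not used to find it, the median of these genes ran from 0.90 to 1.03. Over 293 bins of 5 Mb elsewhere on the autosomes, each with 8 or more low-sharing genes, medians ran from -0.66 to 0.81. Sfswap, a splicing regulator in the segment, had 129S1 shares of 65.9% to 71.8%, Psph, which makes serine, 63.9% to 71.9%, and Asl, an enzyme of the urea cycle, 68.7% to 77.9%. Gusb, a lysosomal glucuronidase, stood at 71.2% to 82.4%. Glt1d1, just before the segment, stood at 47.2% to 59.3% and did not pass (adjusted p 0.0693). Ran and Fzd10, of the next tested genes, stood at medians of 56.3% and 61.9%. Copy number was not measured, so its part in the ratio was not tested. Without the segment, 3428 strongly unequal genes were left, 1744 toward 129S1 and 1684 toward CAST.

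**Figure D3:**
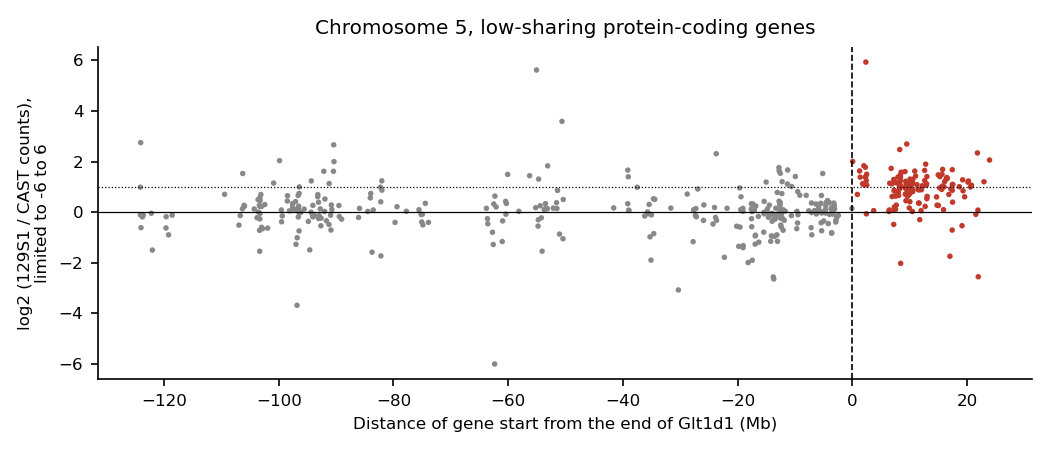
log2 ratio of 129S1 to CAST counts (y axis, limited to -6 to 6) of low-sharing protein-coding genes of chromosome 5 against the distance of their start from the end of Glt1d1 (x axis, Mb). Each point is 1 gene over 10 parental libraries, in red beyond Glt1d1. Red points centre on about 1 (dotted line) and grey points on about 0.

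Runs of strongly unequal genes were few elsewhere. Of strongly unequal genes, 56.1% had the same direction as the nearest other one on the chromosome, and 55.0% without the chromosome 5 segment. There were 10 runs of at least 5 adjacent tested genes, 5 of them in that segment, the longest from Sfswap to Phkg1 (10 genes). On chromosome 15, Smagp, Bin2, Cela1, Galnt6 and Slc4a8 (100621339 to 100823968) were all toward CAST, with median shares of 24.1%, 28.7%, 21.8%, 9.13% and 29.7%. On chromosome 16, Rrn3, an initiation factor of RNA polymerase I, Ntan1, Pdxdc1 and Mpv17l were toward 129S1, with 71.5%, 88.6%, 69.4% and 67.9%. On chromosome 7 the run held Trim6, Trim34b and Trim12c, of an antiviral gene family, with 69.8%, 100% and 100%. The run on chromosome 10 held Raet1e and Raet1d, ligands of an activating receptor of natural killer cells, at 0% at the median. The Raet1 genes overlap one another, and 47.7% to 69.1% of the words of these genes other than Trim6 were shared.

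The ratios were also fitted by line. With 1 allele coefficient per line in the same fit, 49.5% of genes passed the test in d3, 48.2% in d6, 48.8% in i7, 41.7% in i10 and 41.4% in i12, with the fewest counts in i10 and i12. Of the 3568 strongly unequal genes, whose direction in every library is part of their definition, 2906 (81.4%) were at least 2-fold in every line. In 4119 low-sharing genes averaging 100 counts or more, the median SD of the log2 ratio was 0.205 between replicates of a line. Counting alone gives 0.186 per library. Between line means the SD was 0.167, but a line mean averages 2 libraries, so this value cannot be set directly against the 2 values per library. In the clone libraries, 3358 of the strongly unequal genes (94.1%) had the same direction in all 14, and none in fewer than 8. These clones descend from the same cells, so they do not show another cross.

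The i12 line departed in the medians of chromosomes 3, 6, 8 and 14. On chromosome 8 its median log2 ratio was 0.23 and 0.34 in replicates 1 and 2, against -0.0017 to 0.051 in the other 8 libraries, and on chromosome 14 it was 0.21 and 0.29, against -0.031 to 0.017. On chromosome 3 it was -0.13 and -0.23, against 0.033 to 0.098, and on chromosome 6 -0.215 and -0.287, against -0.030 to 0.074. The ranges of i12 and the other lines did not overlap on any of the 4. Nor did they on chromosome 18, where the difference was smaller, with i12 at -0.0412 and -0.0813 against 0.0222 to 0.103. Positions along chromosomes 3, 8 and 14 were not examined by line.

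The allele that moved differed by chromosome, in genes with a share of 20% to 80%. Against the mean of the other lines, 129S1 counts of i12, scaled to the library total, were higher by 0.30 ± 0.082 (log2, SD, n = 2) on chromosome 8 and by 0.26 ± 0.10 on chromosome 14, and CAST counts by 0.045 ± 0.016 and 0.042 ± 0.021. On chromosomes 3 and 6, CAST counts were higher by 0.26 ± 0.066 and 0.27 ± 0.086, and 129S1 counts by 0.011 ± 0.025 and 0.0042 ± 0.030. Added over alleles, the mean of both replicates was higher by 0.12 to 0.18, but replicate 1 lay inside the range of the other libraries on chromosome 3 (0.0951, others up to 0.0993) and chromosome 14 (0.105, others up to 0.113). One allele of each chromosome was thus higher and the other lay within the spread of the other lines. Whether i12 cells differ in copy number was not tested. In bulk libraries a change in all cells and a larger change in some cells cannot be told apart.

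**Figure D4:**
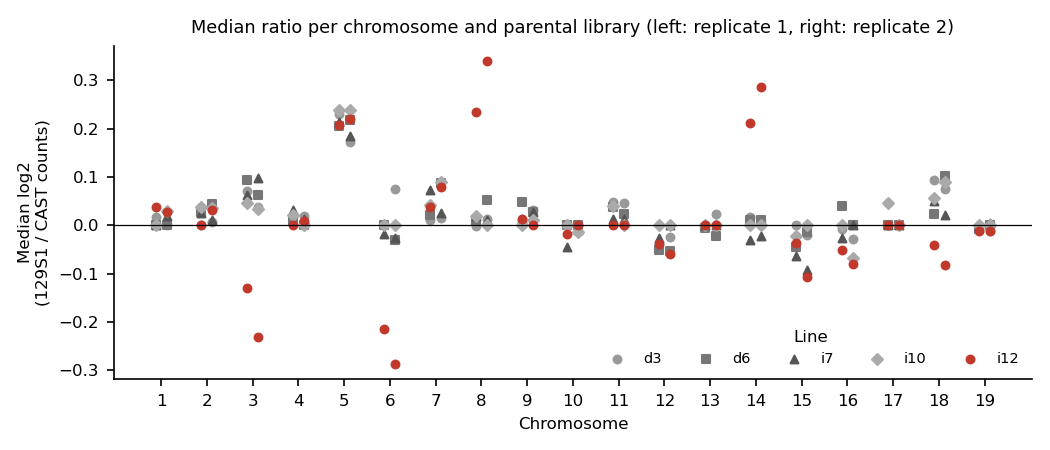
Median log2 ratio of 129S1 to CAST counts per autosome (x axis), with a point for each of 10 parental libraries. The i12 libraries (red) lie apart on chromosomes 3, 6, 8 and 14 and, by less, on chromosome 18, and chromosome 5 is raised in all libraries, between 0.17 and 0.24.

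The d3 line departed in part of chromosome 6. In 65 genes with a share of 20% to 80% from Phc1, a Polycomb protein gene, to Ybx3, an RNA-binding protein gene (122317731 to 131388476), the log2 ratio of d3 was higher than the mean of the other lines by 0.90 in replicate 1 and by 0.89 in replicate 2. The other 8 libraries lay between -0.23 and 0.15 of that mean. In d3 129S1 counts were higher by 0.86 ± 0.15 (log2, SD, n = 2) while CAST counts lay inside the range of the other lines (-0.128 in replicate 1 and 0.0255 in replicate 2, others -0.174 to 0.224), and the sum was higher by 0.52 ± 0.13. On the rest of chromosome 6 the ratio of d3 differed by 0.066 ± 0.015, inside the range of the other 8 libraries (-0.241 to 0.102). The mean of the other lines includes i12, which itself departed on chromosome 6, so that departure enters these differences. Taken without that mean, the median log2 ratio in the segment was 0.816 and 0.951 in d3, against -0.14 to 0.214 in the other 8 libraries. On the rest it was -0.0429 and 0.0122, against -0.303 to 0. The segment was chosen after values were seen. It holds Nanog, Gdf3, a TGF-beta ligand, and Slc2a3, a glucose transporter.

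A joint test asked in which genes the ratio differed between the 5 lines. It called 221 genes, 1.66% of those tested, with 1475 at an unadjusted p under 0.05. Of these 173 were protein-coding and 40 pseudogenes, and 28 lay in the chromosome 6 segment, of 86 genes tested there. In all 28 the ratio of d3 was shifted toward 129S1 relative to the other lines. This does not mean more counts on 129S1: the log2 ratio of Mfap5 in d3 was -4.24. The line furthest from the others was d6 in 79 genes, d3 in 72, i7 in 30, i12 in 24 and i10 in 16. The count depended on single libraries: it was 415 without d3 replicate 1, 394 without i7 replicate 2, 120 and 123 without i10 replicates 1 and 2, and 104 and 73 without i12 replicates 1 and 2. DESeq2's likelihood ratio test called 134, of which 117 were among the 221.

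The ratio of Smarcc1 differed between lines with the smallest p. Smarcc1 (ENSMUSG00000032481.17, chromosome 9, 110117708 to 110240178), a core subunit of the BAF chromatin remodelling complex, had 129S1 shares of 13.3% and 15.3% in d6 and 13.1% and 14.9% in i10. In the other lines it had 45.2% and 46.7% in d3, 46.3% and 45.6% in i7 and 43.5% and 44.5% in i12 (adjusted p 3.07e-09). Both replicates of d6 and i10 lay far below every other library, and in d6 replicate 1 this was 334 counts on 129S1 and 2178 on CAST.

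Other genes split the lines differently. Map3k7, the kinase TAK1, had 33.9% to 34.1% in d3 and 37.8% to 39.5% in i7, against 53.6% to 59.9% in d6, i10 and i12 (adjusted p 4.59e-05). Spag9, a scaffold of JNK signalling, had 67.6% to 71.4% in d3 and i7 and 27.97% to 40.4% in the other 3 lines (adjusted p 6.42e-05). Slc38a4, an amino acid transporter known to be imprinted, had 27.6% to 32.5% in d3 and i7 and 13.0% to 20.1% in the others (adjusted p 2.85e-05). In these 3 genes d3 and i7 lay together, on either side of the other lines.

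Galnt6, a glycosyltransferase, had 2.86% to 3.92% in i10 and i12, against 8.57% to 15.3% in d3, d6 and i7 (adjusted p 1.06e-04). Slc2a3 and Ptms, a small acidic protein, both in the chromosome 6 segment, had 60.7% to 63.0% and 56.7% to 57.9% in d3 and at most 45.9% and 42.9% in the other lines (adjusted p 5.08e-05 and 7.49e-05). Without the d3 line neither passed (adjusted p 0.304 and 0.144).

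**Figure D5:**
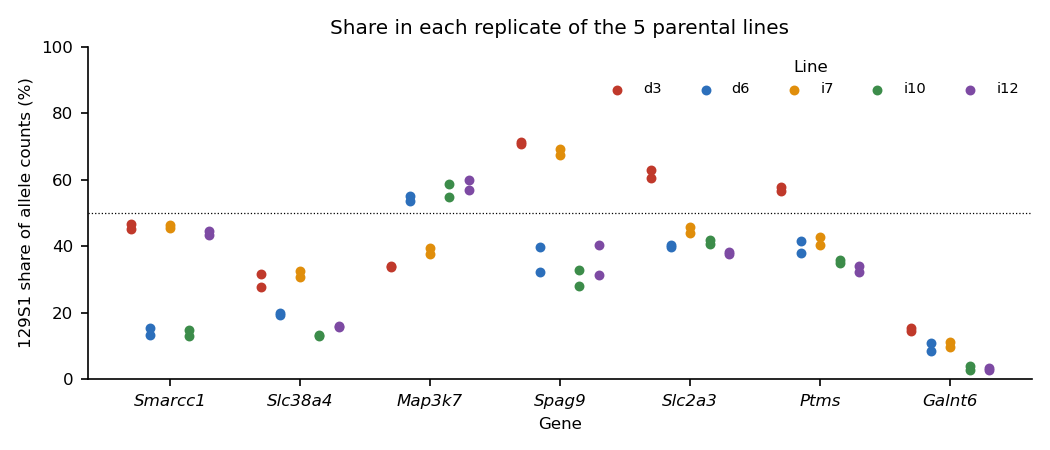
Share of allele counts on 129S1 (y axis, percent) in each of 2 replicates of the 5 parental lines (colours) for the named genes whose ratio differed between lines (x axis). The d6 and i10 libraries lie near 15% for Smarcc1, and the d3 libraries lie highest for Slc2a3 and Ptms.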

How the data were processed

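Poly(A) RNA of each library was made into stranded libraries and sequenced from a single end with reads of 75 bases, per the labels' protocols. The deposited table holds raw counts per gene, in 2 columns per library, 1 for each allele, per the file headers. The submitters' processing notes name STAR, SAMtools and mm10. How the authors split reads between alleles, and what they did with reads without an informative variant, is not given in the sources used here. Gene positions are from GENCODE M21 on GRCm38, to which 48838 of 48985 identifiers matched without version. The 147 others held 0.0148% of the parental counts.

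Allele counts of the 10 parental libraries were tested with edgeR 4.0.16 (R 4.3.3), with a term for library and one for allele, and both columns of a library given its total as library size, so that a fold change is the plain ratio. P-values were adjusted by Benjamini-Hochberg over 13333 genes. The common biological coefficient of variation was 0.11. The difference between lines was tested with 1 allele coefficient per line, which left 5 residual degrees of freedom. Library log2 ratios used a pseudocount of 0.5. DESeq2 1.42.0 gave alternatives, and Python 3.11.15 with pandas 2.3.3 the descriptions. Simulated counts of 13333 genes left 13133 with equal alleles, changed 50 at each fold and gave all genes a common dispersion. On such counts the allele test called 36% of 1.25-fold, 78% of 1.5-fold, 92% of 2-fold and 100% of 4-fold changes. The test between lines called 48% of 2-fold and 78% of 4-fold changes in 1 line. In the data 69.0% of genes passed the allele test, so its adjusted threshold was less strict there. The simulated shares of the allele test therefore do not give its power in the data. Stranded libraries were used, but whether counting used strand is not given in the sources used here, so overlaps on the opposite strand are named.

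Genes were named by rule: the 8 largest ratios toward each allele among strongly unequal genes averaging 100 counts or more, with 3 or more on the lower allele and no Gm, Rik or pseudogene symbol, the 5 most counted toward each allele, the 4 most counted near one-sided genes toward each allele, up to 4 members of each list, the imprinted genes, the 8 smallest p-values between lines and the 3 longest runs. Low-sharing genes, the chromosome segments, and Apoa2, Bcl2l14 and the genes of shorter runs were chosen after their values were seen. Of the genes so named, 1 is not reported here. Members and lists were chosen with earlier results of these data known. Alternatives were other normalisation, filters, thresholds and libraries left out. The labels name no molecular identifiers, so counting error may be understated.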

Additional observations from a re-analysis of the deposited data

Results flagged for a closer look

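In 98 measures checked over the 10 parental libraries, 10 had 1 library far from the other 9, where chance flags about 1 in 20. H19 had a log2 ratio of 2.81 in i12 replicate 2, against -1.58 to 0.72 elsewhere. Tssc4, another gene of the imprinted region of chromosome 7, stood at 1.07 in d6 replicate 2, against -0.12 to 0.51. Gpx1 stood at 2.73 in d6 replicate 2 (4.61 to 5.91 elsewhere), Pkm at -2.35 in d3 replicate 2 (-1.98 to -1.69) and Hax1 at -10.6 in i12 replicate 2 (-8.72 to -7.44). Rpl36al stood at 12.5 in i10 replicate 2 (9.51 to 10.9) and Ube2d2a at 9.02 in d6 replicate 2 (7.74 to 8.22). Medians of 3 chromosomes were set apart by small amounts: chromosome 10 at -0.045 in i7 replicate 1, chromosome 13 at 0.023 in d3 replicate 2 and chromosome 17 at 0.045 in i10 replicate 1.

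The ratio differed between the 5 lines in 221 genes. Those described were Smarcc1 (adjusted p 3.07e-09), Slc38a4 (2.85e-05), Map3k7 (4.59e-05), Slc2a3 (5.08e-05), Spag9 (6.42e-05), Ptms (7.49e-05) and Galnt6 (1.06e-04), in edgeR's quasi-likelihood test.

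Outside the autosomes, 129S1 held 28.7% of chromosome X counts at the median, with a range of 27.0% to 32.2% over the 10 libraries. Of mitochondrial counts, which are inherited from the mother, 129S1 held 92.5% at the median, with a range of 90.0% to 94.3%. Most mitochondrial counts on CAST came from mt-Co1, of whose counts 22.4% were on CAST, and mt-Nd5, with 17.0%. Without these 2 genes CAST held 0.0853% to 0.215%.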

How the results depend on the processing

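The counts of called and strongly unequal genes stayed within 1.5 times of the values above under TMM, DESeq2, a mean of at least 50 counts, no filter, no library term and the replicates of a line added together. TMM moved the median ratio by -0.017 and turned the direction of 0 strongly unequal genes. Strongly unequal genes fell to 1860 when both alleles averaged 10 counts or more, 2128 without Gm, Rik and pseudogene models, 2181 at 4-fold and 976 among low-sharing genes, where 4105 were called and 23 near one-sided. Leaving out single libraries gave 8880 to 9120 called and 3583 to 3660 strongly unequal genes, and 73 to 415 genes differing between lines. That last count was 134 with DESeq2, 137 with 10 counts per allele, 128, 340, 134 and 96 without d6, i7, i10 and i12, 131 without chromosomes 3, 6, 8 and 14, and 74 among low-sharing genes. The low-sharing and segment alternatives were chosen after seeing the data. The median ratio of chromosome 5 moved from 0.21 to 0.18 with at least 50 counts and 0.19 in genes with a share of 20% to 80%. The cause of these moves was not tested, except that fewer genes entered the subsets. By replicate number, r between lines ran from -0.0565 to 0.218 over 10 pairs of lines (median 0.0498). It was highest for i10 and i12 (0.218) and for d3 and d6 (0.152), and whether replicates share a batch was not tested. With a replicate block 9159 genes were called and 3576 were strongly unequal, while 154 differed between lines, against 221 without it. Over 73 named genes, 1353 of 1357 alternatives kept the call, none reversed, and Peg10, Peg13 and Tssc4 lost it without the library term. Rtl1 passed without d6 replicate 2. In low-sharing genes averaging under 30 counts the median standard error of 0.267 limits what can be called.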
